A study of Mus musculus with 24 samples.

Results

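The response of wild-type (WT) mouse astrocytes to interleukin-1α (IL-1α), tumor necrosis factor α (TNFα) and complement component C1q is described from 6 of the 24 libraries of the series, 3 quiescent and 3 activated. The series compares WT cells with cells carrying the human SOD1G93A transgene, whose mutant superoxide dismutase causes a familial form of amyotrophic lateral sclerosis. Its libraries are astrocytes of both genotypes, quiescent or given the 3 factors, and microglia of both, quiescent or given lipopolysaccharide, in triplicate. The astrocytes came from the forebrain of pups at postnatal day 5. They were isolated by immunopanning and grown in serum-free medium with HBEGF. Negative selection used CD45 against microglia, BSL I against endothelial cells and O4 against the oligodendrocyte lineage, and positive selection used HepaCAM. The quiescent group is WT astrocytes given phosphate-buffered saline, and the activated group is WT astrocytes given all 3 factors (3 ng/mL of IL-1α, 30 ng/mL of TNFα and 400 ng/mL of C1q), for a time not given in the sources used here. Libraries were strand-specific and made from polyadenylated RNA, read from paired ends. Genes were tested where the mean normalized count over the 6 libraries was at least 10, which kept 12336 of 24411 genes.

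Astrocytes carry receptors for IL-1 and TNF, and both receptor families signal through adaptor proteins to the transcription factors NF-κB and AP-1. Exposure of astrocytes to the mixture of microglial factors used here is a standard way to bring them to a neuroinflammatory reactive state in culture. In that state astrocytes secrete chemokines, complement and matrix enzymes and can lose some of their homeostatic functions.

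Quiescent replicate 3 stands apart from the other quiescent libraries. Whole reads recovered from the normalized counts number 2016139, 3637657 and 9258718 in quiescent replicates 1 to 3 and 5047999, 6768201 and 5749391 in activated replicates 1 to 3. Differences between pairs of libraries of 1 group exceed counting error by a factor (chi-square over degrees of freedom) of 2.08 for quiescent replicates 1 and 2, but 9.45 and 6.82 for the pairs that include replicate 3, against 1.98 to 2.23 among the activated libraries. The median standard deviation on the log2 scale is 0.193 in the quiescent and 0.102 in the activated group. Of genes with a quiescent mean of at least 50, 14 lie over 1 log2 unit in replicate 3 from both other quiescent libraries, which agree within 0.5, 4 of them higher there and 4 of them called. Correlation between libraries is 0.965 to 0.982 within the quiescent group, 0.988 to 0.990 within the activated group and 0.869 to 0.905 between groups. The 10 most abundant genes hold 4.31 to 4.57% of each library, with *Eef1a1*, an elongation factor of translation, the most abundant.

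Each gene was compared with a moderated t-test (limma) on log2 of the normalized count plus 1, and was called at an adjusted p below 0.001 with an absolute log2 fold change over 1. The labels do not state whether replicates are separate animals or separate cultures. The p-values therefore measure only the spread between these samples, which may be technical. With 3 libraries against 3 there are 20 arrangements of the labels, so an exact test cannot go below p = 0.1 and the smaller values rest on the normal model. The added 1 makes fold changes of low genes too small. In bulk RNA a fall of a cell-type marker can mean fewer such cells or less of that RNA per cell, and the counts cannot tell these apart.

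The calls number 1424 of 12336 (11.54%), with 740 higher (5.999%) and 684 lower (5.545%) in the activated group. Of the genes called higher, 329 exceed log2 2, 154 exceed 3 and 76 exceed 4, with a median of 1.87. Of those called lower, 131 exceed 2 in absolute value and 23 exceed 3, with a median of −1.57. The groups of every called gene are apart, as are those of 6282 tested genes in all (50.92%). The genes called higher held 2.35, 2.46 and 2.78% of the reads in the quiescent and 10.6, 9.99 and 10.04% in the activated libraries. Those called lower held 8.19, 8.26 and 8.14% and then 2.67, 2.85 and 2.84%. Protein-coding genes make up 718 of the 740 and 651 of the 684. At most 3 reads in the lower group were found for 11 genes called higher. Without quiescent replicate 3 the calls number 1547, with 849 higher and 698 lower.

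To read the response, 36 lists of genes with a known function and 7 lists of markers of cell types were drawn up. The 36 hold 977 genes, 49 of them in more than 1 list, and among these are 298 of the called genes (20.9%). For each list the counts called higher and lower and, with more than 1 gene tested, the median log2 fold change are given, to be read beside a median of 0.01 over all 12336 genes and the 11.54% called. The lists and their members were chosen with earlier results of these data known. A share above 11.54% therefore describes the list and is no independent test of it. Genes of near-identical families, such as those named *H2*, *Gbp*, *Ifit*, *Serpina3*, *C4* and *Saa*, share reads that the deposited counts divide among them, so their single values are less certain. With 1 library left out, 1 or both counts move by over 1.5 times in 18 of the 43 lists, and list medians move by up to 0.46. A range in brackets after a median holds its values over these 6 fits, given where 1 of them is over 1.5 times away or of the other sign.

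**Figure D1:**
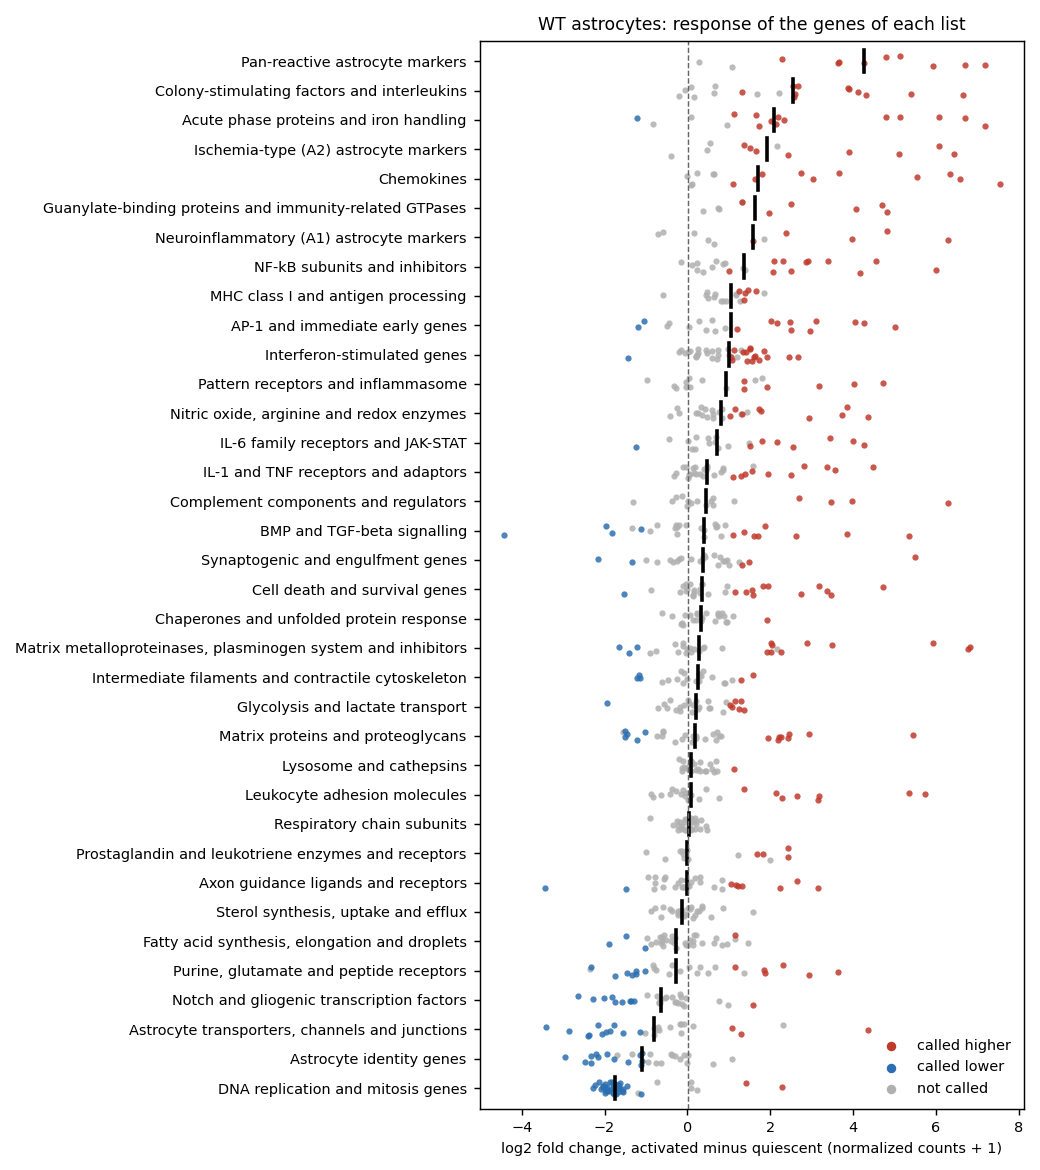
Log2 fold changes (activated minus quiescent WT astrocytes) of the tested genes of each list. Each point is 1 gene, red where called higher, blue where called lower and grey where not called. The black line is the list median, and the dashed line is the median of all genes tested.

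Values below are normalized counts of quiescent replicates 1 to 3 against activated replicates 1 to 3, and the first value in brackets after them is the log2 fold change. Gene positions are on GRCm38 from GENCODE M21. The 12 largest rises among called genes with a mean of at least 100 include secreted factors, a metalloreductase and signalling proteins. *Steap4*, which reduces iron and copper at membranes (chromosome 5, 7960457 to 7982213), was at 32.6, 38.1 and 73.6 in the quiescent and 6923, 6598 and 6566 in the activated libraries (7.18, standard error 0.23, adjusted p = 4.3e-09). *Cxcl5* (chromosome 5, 90759360 to 90761624), a neutrophil chemokine, was at 0, 3.94 and 5.34 against 705, 575 and 495 (7.54, standard error 0.55, adjusted p = 1.2e-06). *Lcn2* (chromosome 2, 32384633 to 32388252), a siderophore-binding lipocalin, went from 109, 159 and 169 to 15899, 14411 and 14818 (6.70, adjusted p = 5.8e-10). In all 3 genes the lowest activated library is many times the highest quiescent one. *Tslp*, an epithelial-type cytokine, was at 13.98, 18.4 and 22.4 against 1927, 1968 and 1799 (6.65, standard error 0.15, adjusted p = 6.5e-10). *Ccl2* (chromosome 11, 82035571 to 82037453), a monocyte chemokine, was at 37.3, 39.4 and 78.97 against 5175, 4526 and 4654 (6.58, adjusted p = 5.7e-09). *Shisa3* (chromosome 5, 67607882 to 67623552), which retains Wnt and FGF receptors in the endoplasmic reticulum, was at 72.2, 83.98 and 131 against 8289, 8131 and 7915 (6.44, standard error 0.17, adjusted p = 1.6e-09). Replicate 3 is the highest quiescent library for each of these and lies far below every activated one.

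The remaining 6 of the 12 are *Cxcl1*, *C3*, *Ptx3*, *Bcl3*, *Timp1* and *Pik3cd*, and groups apart were a condition of the choice of all 12. *Cxcl1* (chromosome 5, 90891241 to 90893115), another neutrophil chemokine, was at 34.9, 38.1 and 49.6 in the quiescent and 3738, 3374 and 3028 in the activated libraries (6.35, standard error 0.13, adjusted p = 5.8e-10). The central complement gene *C3* (chromosome 17, 57203970 to 57228136) was at 18.6, 26.2 and 29.3 against 2222, 1767 and 2017 (6.30, adjusted p = 1.0e-09). *Ptx3* (chromosome 3, 66219910 to 66225805), a secreted pentraxin, was at 23.3, 22.3 and 47.5 against 2290.0, 1867 and 1965 (6.08, standard error 0.23, adjusted p = 1.3e-08). Activated replicate 1 is the highest library for all of these, and activated replicate 2 the lowest of its group for *C3* and *Ptx3*. *Bcl3* (chromosome 7, 19808462 to 19822770), a nuclear partner of NF-κB, was at 2.33, 2.62 and 4.27 against 274, 252 and 244 (6.01, standard error 0.24, adjusted p = 1.6e-08). *Timp1* (chromosome X, 20870166 to 20874735), an inhibitor of metalloproteinases, was at 51.2, 83.98 and 84.8 against 4354, 4369.5 and 4592 (5.94, adjusted p = 1.8e-09). *Pik3cd* (chromosome 4, 149649168 to 149702571), a catalytic subunit of phosphoinositide 3-kinase found mainly in leukocytes, was at 11.6, 13.1 and 16.5 against 862, 869 and 839 (5.87, standard error 0.14, adjusted p = 9.3e-10). The last of these spans a narrow range in each group.

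**Figure D2:**
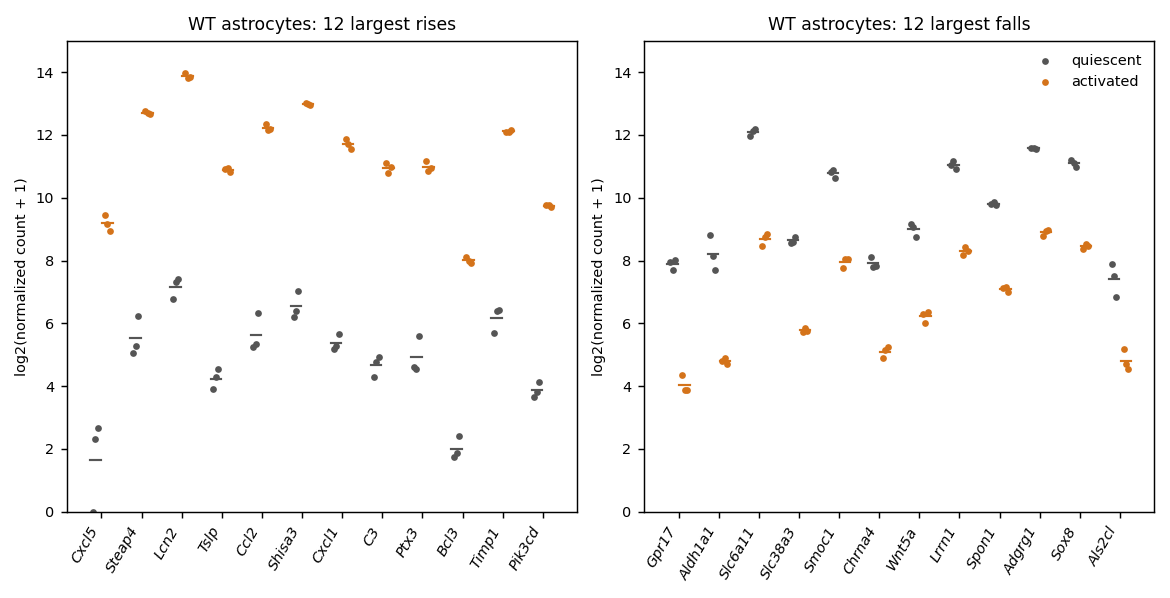
Normalized counts, plotted as log2 after adding 1, of the 12 largest rises and 12 largest falls in each of the 6 libraries.

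The 12 largest falls among called genes with a mean of at least 100 include transporters, an aldehyde dehydrogenase and developmental genes. *Gpr17*, a receptor of immature oligodendrocytes, was at 247, 207 and 259.8 in the quiescent and 19.3, 13.6 and 13.8 in the activated libraries (−3.86, standard error 0.19, adjusted p = 7.8e-08). *Aldh1a1* (chromosome 19, 20492715 to 20643465), which makes retinoic acid, was at 447, 282 and 207 against 27.00, 28.5 and 25.01 (−3.42, standard error 0.24, adjusted p = 8.9e-07). *Slc6a11* (chromosome 6, 114131241 to 114249952), the astrocytic GABA transporter GAT-3, was at 3976, 4447 and 4679 against 351, 427 and 463 (−3.40, adjusted p = 5.3e-09). The quiescent values of *Aldh1a1* step down from replicate 1 to 3, while its activated values are level. *Slc38a3* (chromosome 9, 107650634 to 107669530), a glutamine transporter, was at 379.7, 387 and 433 against 52.1, 57.1 and 52.6 (−2.87, adjusted p = 1.8e-08). *Smoc1* (chromosome 12, 81026808 to 81186414), a secreted antagonist of bone morphogenetic proteins (BMPs), was at 1810.0, 1884 and 1579 against 217, 262 and 261 (−2.83, standard error 0.11, adjusted p = 1.1e-08). The nicotinic receptor subunit *Chrna4* (chromosome 2, 181018380 to 181043546) was at 277, 223 and 225 against 28.9, 34.2 and 37.1 (−2.82, adjusted p = 1.8e-07). Groups apart were a condition of the choice of these genes, and the activated values are near one another.

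The other 6 falls are of *Wnt5a*, *Lrrn1*, *Spon1*, *Adgrg1*, *Sox8* and *Als2cl*. *Wnt5a* (chromosome 14, 28504750 to 28527448), a Wnt ligand, was at 573, 531 and 430.0 in the quiescent and 78.1, 64.2 and 81.1 in the activated libraries (−2.76, adjusted p = 9.8e-08). *Lrrn1* (chromosome 6, 107529768 to 107570214), a leucine-rich repeat protein of neural progenitors, was at 2113, 2286 and 1946 against 287, 345 and 317 (−2.74, standard error 0.10, adjusted p = 7.4e-09). *Spon1* (chromosome 7, 113765998 to 114043370), a matrix protein of the floor plate, was at 885, 941 and 869.7 against 139.8, 141 and 127 (−2.72, adjusted p = 5.3e-09). Within-group spread is small for these, and *Wnt5a* is lowest in replicate 3 of the quiescent group. *Adgrg1* (chromosome 8, 94974751 to 95014217), an adhesion receptor of progenitors, was at 3042, 3097 and 3007 against 442, 486 and 505 (−2.67, standard error 0.08, adjusted p = 3.6e-09). *Sox8* (chromosome 17, 25565892 to 25570686), a glial transcription factor, was at 2353, 2181 and 2029.7 against 326, 364 and 355 (−2.65, adjusted p = 5.3e-09). *Als2cl* (chromosome 9, 110879870 to 110900530), a regulator of Rab5, was at 235, 181 and 113 against 35.7, 24.96 and 22.4 (−2.59, standard error 0.26, adjusted p = 1.7e-05). The quiescent values of *Als2cl* step down from replicate 1 to 3.

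Of the receptors for the added cytokines, *Il1r1* and *Tnfrsf1a* rose and *Tnfrsf1b* was not called. Of 32 tested receptors, adaptors and kinases of these pathways, 10 were called, all higher, with a list median of 0.47. The signalling receptor *Il1r1* was at 23.3, 24.9 and 34.1 against 211, 193 and 191 (2.83, adjusted p = 3.8e-07). *Tnfrsf1a*, the widely expressed TNF receptor, was at 447, 482 and 526 against 1183, 1206 and 1161 (1.29, adjusted p = 7.6e-07), while *Tnfrsf1b*, the leukocyte one, was at 62.9, 82.7 and 140.3 against 105, 168 and 95.7, with overlapping groups and no call (0.40, adjusted p = 0.30). The shared adaptor *Myd88* rose (1.94, adjusted p = 2.1e-05), as did the kinase *Ripk2* (3.56, adjusted p = 2.9e-07) and the ubiquitin ligase *Birc3* (3.37, adjusted p = 2.4e-05). *Map3k8*, a kinase that leads to ERK, was at 0, 2.62 and 5.87 against 74.2, 65.6 and 53.5 (4.47, adjusted p = 0.00012). Its call was lost without activated replicates 1 or 3 (adjusted p = 0.0018 without activated replicate 1). *Tnf* itself was at 11.6, 30.2 and 30.4 against 27.96, 38.5 and 27.6 and the receptor antagonist *Il1rn* at 48.9, 85.3 and 122 against 86.8, 152 and 71.6, neither called (0.47 and 0.29, adjusted p = 0.34 and 0.52). Both are lowest in quiescent replicate 1 and highest in activated replicate 2 within their groups.

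Of 22 tested subunits and regulators of NF-κB 11 were called, all higher, with a median of 1.37. The inhibitor *Nfkbia* was at 55.9, 72.2 and 81.1 against 1748, 1604 and 1556 (4.55, adjusted p = 2.1e-09). *Nfkbiz*, an atypical nuclear member of the same family, was at 112, 125 and 102 against 1192, 1109.7 and 1253 (3.38, adjusted p = 3.0e-09). Every activated library is over 8 times every quiescent one for both. The ribonuclease gene *Zc3h12a*, which degrades cytokine mRNA, rose (4.17, adjusted p = 1.1e-05), and the deubiquitinase *Tnfaip3*, which ends receptor signalling, was at 16.3, 41.99 and 48.6 against 247, 224 and 254 (2.86, adjusted p = 3.2e-05). Among the subunits, *Relb* (2.92, adjusted p = 7.4e-08) and *Nfkb2* (2.06, adjusted p = 8.3e-08) of the alternative pathway rose, as did *Rela*, at 345, 357 and 438 against 748, 755 and 785 (1.01, adjusted p = 1.6e-05). The latter is near the fold threshold and was not called under 6 alternatives. Among them are the fits without quiescent replicates 1 or 2 or activated replicate 3 (log2 fold change 0.99 without activated replicate 3). *Rel* was at 2.33, 18.4 and 22.9 against 27.00, 36.4 and 25.9 and was not called (1.40, adjusted p = 0.099).

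Immediate early genes moved in both directions. Of 20 tested AP-1, CEBP and early response genes, 10 were called higher and 2 lower, with a median of 1.05. *Cebpd*, a CEBP factor of the acute phase response, was at 34.9, 41.99 and 53.4 against 1452, 1427 and 1358 (5.01, adjusted p = 1.8e-09), and *Cebpb* at 53.6, 45.9 and 64.03 against 462, 459 and 498 (3.11, adjusted p = 3.4e-08). *Ier3*, a stress-induced survival gene, was at 142, 149.6 and 127 against 2544, 2224 and 2204 (4.05, adjusted p = 8.8e-10). These groups are tight and far apart. *Fosl1*, an AP-1 subunit, was at 11.6, 9.18 and 28.3 against 335, 285 and 277 (4.26, adjusted p = 1.7e-06). Replicate 3 is over 2 times the other quiescent libraries for *Fosl1*. *Junb* also rose (2.97, adjusted p = 3.7e-08), whereas *Jun*, at 1065, 1147 and 1633 against 1841, 1607 and 1758, has overlapping groups and no call (0.46, adjusted p = 0.026). *Fos* was at 100.2, 144 and 113 against 195, 248 and 226, not called (0.91, adjusted p = 0.00067). The 2 genes called lower are *Egr1*, a growth-factor response gene, at 5092, 5158 and 3834 against 2117, 2279 and 2392 (−1.04, adjusted p = 4.6e-05), and the orphan receptor *Nr4a1* at 172, 201 and 139.8 against 80.99, 74.9 and 63.8 (−1.20, adjusted p = 0.00013). Calls changed with 1 library left out for *Fos* without quiescent replicate 2 (log2 fold change 1.05 there), *Egr1* without quiescent replicates 1 or 2 or activated replicate 1 (log2 fold change −0.97 without quiescent replicate 2) and *Nr4a1* without quiescent replicate 2 or activated replicate 3 (adjusted p = 0.0014 without activated replicate 3).

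Of the chemokines, 10 of 16 tested were called, all higher, with a median of 1.71. *Ccl7*, a monocyte chemokine beside *Ccl2*, was at 4.66, 9.18 and 5.87 against 379.9, 340.2 and 309.6 (5.55, adjusted p = 2.3e-08). *Cxcl10*, which draws T cells, was at 34.9, 43.3 and 55.5 against 538, 565 and 604 (3.67, adjusted p = 3.2e-08), and *Cxcl2* at 20.97, 52.5 and 69.4 against 391, 374 and 301 (3.02, adjusted p = 3.2e-05). Quiescent replicate 1 is the lowest library for the last 2. *Cx3cl1*, the membrane-bound ligand of the microglial receptor CX3CR1, was at 307, 400.2 and 547 against 1406, 1362 and 1481 (1.80, adjusted p = 7.8e-06). *Cxcl12* was at 16.3, 17.1 and 9.60 against 133, 95.6 and 76.7 (2.75, adjusted p = 1.4e-05), and *Cxcl14* rose too (1.63, adjusted p = 1.0e-06). *Ccl5* was at 114, 178 and 220.4 against 244, 318 and 225 and was not called (0.65, adjusted p = 0.034). *Ccl20* had no read in any quiescent library and 8.68, 6.42 and 12.1 in the activated ones, below the minimum for testing. With a bound of 3 reads over the quiescent group it is at least 9.09-fold higher, a bound that covers counting error only.

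Of 19 tested colony-stimulating factors, interleukins and neurotrophic factors, 11 were called, all higher, with a median of 2.55 (7 called higher without activated replicates 1, 2 and 3 in turn). *Lif*, a cytokine that acts on glia through the receptor chain gp130, was at 4.66, 7.87 and 18.7 against 442, 398 and 427 (5.41, adjusted p = 6.2e-07). *Clcf1*, which signals through the same chain, was at 25.6, 34.1 and 50.2 against 715, 518 and 441 (3.91, adjusted p = 3.4e-07), falling from replicate 1 to 3 of the activated group. *Csf1*, the survival factor of microglia, was at 231, 270.3 and 341 against 1889.9, 1672 and 1747 (2.67, adjusted p = 8.2e-08). For all of these the activated libraries are over 4 times the highest quiescent one. *Il6* was at 13.98, 19.7 and 21.3 against 131, 99.8 and 104 (2.55, adjusted p = 3.6e-06), and *Il33*, a nuclear alarmin, at 9.32, 18.4 and 8.54 against 88.7, 71.3 and 63.8 (2.60, adjusted p = 4.0e-05). *Il11* was at 0, 0 and 1.601 against 36.6, 25.7 and 18.97 (4.30, adjusted p = 0.00013) and *Csf2* at 4.66, 1.31 and 0 against 49.2, 39.9 and 31.9 (4.11, adjusted p = 0.00020). Each had 3 reads in the whole quiescent group, and their ratios of pooled reads are 27.3 (95% interval 9.05 to 134) and 40.9 (95% interval 13.7 to 201), intervals that cover counting error only. The calls of both were lost on leaving libraries out, *Il11* without activated replicates 2 or 3 (adjusted p = 0.0019 without activated replicate 2) and *Csf2* without quiescent replicate 2 or activated replicates 1, 2 or 3 (adjusted p = 0.0033 without activated replicate 1).

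Among receptors of the IL-6 family, *Osmr* rose and *Lifr* fell. Of 20 tested genes 7 were called higher and 1 lower, with a median of 0.72. *Osmr*, the oncostatin M receptor, was at 25.6, 27.6 and 50.2 against 713, 648 and 592 (4.26, adjusted p = 1.1e-07). The gene called lower is the LIF receptor *Lifr*, at 459, 421 and 349 against 160.1, 160.5 and 198 (−1.24, adjusted p = 2.0e-05). So the receptor for LIF fell while the *Lif* cytokine rose (5.41, adjusted p = 6.2e-07). *Stat3* was at 792, 862 and 1065 against 2652, 2438 and 2571 (1.50, adjusted p = 1.3e-06), and its feedback inhibitor *Socs3* at 37.3, 78.7 and 70.96 against 243, 300.2 and 265 (2.16, adjusted p = 2.9e-05). *Stat5a* (3.99, adjusted p = 1.7e-06) and the IL-13 receptor chain *Il13ra1* (3.45, adjusted p = 2.7e-07) rose from low levels.

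Interferon-stimulated genes moved unevenly in WT astrocytes. Of 38 tested, 16 were called higher and 1 lower, with a median of 1.00 (8, 6, 6 and 6 called higher without quiescent replicate 2 and activated replicates 1, 2 and 3 in turn). *Ifitm3*, which blocks viral entry, was at 116, 154 and 175 against 897, 894 and 1016 (2.67, adjusted p = 1.3e-07), and the transcription factor *Irf1* at 30.3, 34.1 and 46.4 against 205, 199 and 207 (2.45, adjusted p = 8.8e-07). *Irf9* also rose (1.51, adjusted p = 3.4e-05). *Ifit2*, an RNA-binding antiviral gene, is the 1 called lower, at 309.8, 319 and 366 against 122, 136 and 109 (−1.43, adjusted p = 3.7e-06). Not called were *Isg15* at 4.66, 10.5 and 18.7 against 24.1, 30.7 and 23.3, *Ifit1* at 20.97, 32.8 and 43.8 against 40.5, 68.5 and 51.7 and *Irf7* at 39.6, 65.6 and 73.6 against 65.6, 108 and 74.2 (1.30, 0.73 and 0.48, adjusted p = 0.032, 0.067 and 0.17). *Ifnb1* had no read in any of the 6 libraries. The list of guanylate-binding proteins and related GTPases has 6 of 10 tested called, all higher, and a median of 1.64. *Gbp2* was at 41.9, 45.9 and 65.6 against 1472, 1367 and 1488 (4.82, adjusted p = 3.6e-09), with *Gbp6* (4.70, adjusted p = 7.8e-07) and *Gbp5* (4.08, adjusted p = 1.6e-06) close behind in size.

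The same treatment was given to SOD1G93A astrocytes, and the difference between the responses of the genotypes was tested over the 12 astrocyte libraries, whose values are given here on a common scale. Of 12269 genes tested with limma, 0 were called for the difference, while 1018 (8.30%) had an unadjusted p below 0.05 and edgeR on the recovered reads called 4, among them *Gbp7*, *Gbp3* and *Usp18*. At an adjusted p below 0.05 with any fold change there are 34 (0.2771%), of which 33 have a positive difference (SOD1G93A minus WT response) and *Dscaml1* a negative one. On the interferon-stimulated list are 14 of them and on the guanylate-binding list 3, *Gbp3*, *Gbp7* and *Irgm1*. *Dscaml1*, *Irgm1*, *Gbp7* and *Usp18* were singled out after their values were seen. *Gbp3* in WT was at 139, 174 and 139 against 236, 235 and 288 and in SOD1G93A at 171, 199 and 198 against 901, 764 and 791 (difference of the log2 responses 1.36, standard error 0.17, adjusted p = 0.0018). Every treated SOD1G93A library lies above every treated WT one for this gene. *Ifit2* fell in WT (−1.43) and had a response of −0.30 in SOD1G93A, and *Ifit1* had responses of 0.73 and 2.71 (differences 1.14 and 1.98, adjusted p = 0.021 and 0.025). *Cxcl10* responded by 3.66 and 4.90, and the glycolytic enzyme gene *Aldoc* by −1.94 and −1.26 (adjusted p = 0.049 and 0.040 for the differences). Over the 42 list genes tested here the median response of interferon-stimulated genes is 1.00 in WT and 2.28 in SOD1G93A, and the median difference is 1.00 against 0.00 over all genes. The guanylate-binding list has medians of 2.01 and 2.97, with a median difference of 0.99. Replication and mitosis genes gave −1.76 and −1.70. Chemokines gave 1.71 and 1.21 with a median difference of −0.58. Of 16 chemokines 6 have an unadjusted p below 0.05 and 1, *Cxcl10* with a positive difference, an adjusted one. Markers of microglia gave 0.00 and −0.68 with −0.72, where 0 of 17 pass an adjusted p of 0.05 in limma and 5 an unadjusted one. Sterol genes gave −0.12 and 0.30 with 0.32, and 14 of 29 have an unadjusted p below 0.05. Identity genes of astrocytes gave −1.09 and −0.66 with 0.35, and 13 of 28 have such a p. The cause of these differences was not tested.

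**Figure D3:**
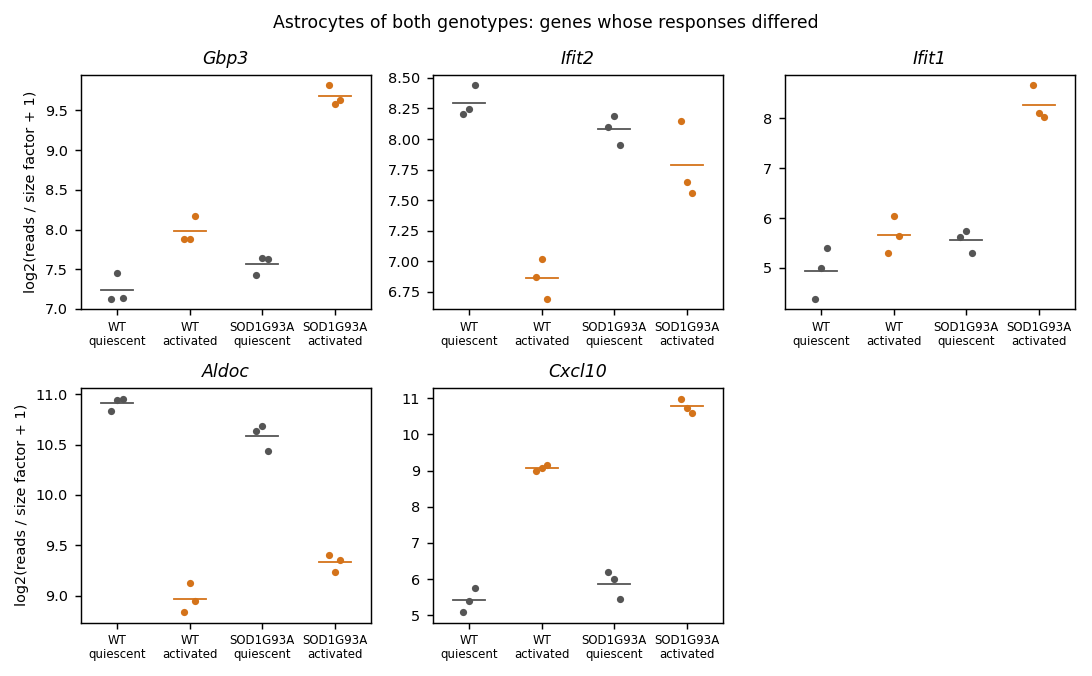
Normalized counts, plotted as log2 after adding 1, of *Gbp3*, *Ifit2*, *Ifit1*, *Aldoc* and *Cxcl10* in quiescent and activated astrocytes of both genotypes.

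Of the complement genes, *C3* and 3 others were called. Of 17 tested 4 were called, all higher, with a median of 0.46 (range 0.07 to 0.48). *C1ra*, a protease of the C1 complex, was at 2.33, 2.62 and 6.94 against 55.9, 45.6 and 48.3 (3.47, adjusted p = 2.9e-05). *Serping1*, the C1 inhibitor, was at 0, 2.62 and 6.40 against 44.4, 39.2 and 56.1 (3.97, adjusted p = 0.00040), and *C4b*, cleaved by C1, at 72.2, 118 and 212 against 282, 278 and 243 with no call (1.13, adjusted p = 0.010). The fourth call is the protease gene *C1s1* (2.68, adjusted p = 0.00021), singled out after its values were seen. Calls changed for *Serping1* without quiescent replicate 2 or activated replicates 1, 2 or 3 (adjusted p = 0.0054 without activated replicate 3), *C1s1* without quiescent replicate 2 or activated replicates 1, 2 or 3 (adjusted p = 0.0032 without activated replicate 1) and *C4b* without quiescent replicate 3 (log2 fold change 1.52 there), the last becoming called. The C1q chain gene *C1qa* was at 74.5, 115 and 166 against 112, 185 and 110.4 and the receptor gene *C3ar1* at 53.6, 105 and 127 against 79.1, 143 and 74.2, neither called (0.22 and 0.08, adjusted p = 0.56 and 0.87). The sign of *C3ar1* differs between ways of scaling.

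Some proteasome genes rose, while the class I chains named here were not called. Of 18 tested, 5 were called, all higher, with a median of 1.06 (8 called higher in DESeq2 and 8 in edgeR). The largest fold change is that of *Psmb8*, which was not called (1.85, adjusted p = 0.0017). It was called without quiescent replicates 1, 2 or 3 in turn (log2 fold change 1.44 without quiescent replicate 1). *Psme1*, a subunit of the proteasome activator, was at 97.8, 105 and 98.7 against 296, 269.6 and 275 (1.47, adjusted p = 1.2e-06), and the immunoproteasome subunit *Psmb10* at 53.6, 49.9 and 41.1 against 154, 153 and 148 (1.65, adjusted p = 5.6e-06). *Psme2*, another activator subunit, was called too (1.40, adjusted p = 0.00020), though not without quiescent replicate 2 or activated replicates 1, 2 or 3 (adjusted p = 0.0023 without quiescent replicate 2). The peptide transporter *Tap1* and the peptidase *Erap1*, singled out after their values were seen, are the other calls (1.37 and 1.24, adjusted p = 4.8e-05 and 1.7e-05). The class I chains *H2-K1*, at 224, 216 and 259 against 409, 458 and 409, and *H2-D1*, at 142, 185 and 230.0 against 261, 277 and 237, and the light chain *B2m*, at 719.8, 937 and 934 against 1333, 1499 and 1275, were not called (0.87, 0.50 and 0.67, adjusted p = 5.8e-05, 0.029 and 0.00080). Their groups do not overlap, and the fold changes stay below the threshold.

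Receptors for bacterial products and inflammatory caspases are a list with 6 of 17 tested called, all higher, and a median of 0.94. *Casp4*, the sensor of intracellular lipopolysaccharide, was at 2.33, 9.18 and 5.87 against 152, 160.5 and 176 (4.73, adjusted p = 1.5e-06), and *Casp1* at 4.66, 6.56 and 6.94 against 77.1, 51.3 and 59.5 (3.17, adjusted p = 5.8e-06). *Lbp*, which carries lipopolysaccharide in plasma, was at 4.66, 3.94 and 1.07 against 53.03, 67.7 and 66.4 (4.03, adjusted p = 1.5e-05), and its surface partner *Cd14* at 133, 172 and 221 against 399, 499.9 and 429 (1.36, adjusted p = 7.0e-05). Activated values exceed all quiescent ones in each. *Tlr2* was at 46.6, 98.4 and 123 against 318, 342 and 296 (1.93, adjusted p = 0.00023) and *Tlr4* at 20.97, 31.5 and 35.7 against 76.2, 83.4 and 69.8 (1.38, adjusted p = 0.00047). Both calls were lost without quiescent replicate 2 or activated replicates 1, 2 or 3. Without activated replicate 1 the log2 fold change is 1.93 for *Tlr2* (adjusted p = 0.0020) and 1.38 for *Tlr4* (adjusted p = 0.0041). Over the 6 fits without 1 library it lies at 1.52 to 2.21 and 1.16 to 1.53.

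Acute phase and iron-handling genes had 12 of 16 tested called higher and 1 lower, with a median of 2.08. *Cp*, the ferroxidase ceruloplasmin, was at 309.8, 402 and 458 against 14543, 12845 and 13470.3 (5.14, adjusted p = 1.0e-09). The iron importer *Slc11a2* was at 121, 142 and 175 against 647, 660.4 and 693 (2.20, adjusted p = 2.7e-07), and the heme oxygenase *Hmox1* at 321, 483 and 608 against 1561, 1539.7 and 1409 (1.72, adjusted p = 2.2e-05). *Heph*, a membrane ferroxidase related to ceruloplasmin, is the gene called lower, at 107, 95.8 and 105 against 40.5, 46.4 and 43.1 (−1.23, adjusted p = 6.8e-05). So *Cp* rose while *Heph* fell. The serine protease inhibitor *Serpina3n* was at 32.6, 36.7 and 60.3 against 1288, 1206 and 1049 (4.79, adjusted p = 2.1e-08) and the serum amyloid gene *Saa3* at 37.3, 78.7 and 69.4 against 309.5, 305 and 287 (2.33, adjusted p = 1.2e-05).

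Of 23 tested adhesion genes 8 were called, all higher, though the list median is 0.09 (range 0.06 to 0.26), with 1 gene called lower without quiescent replicate 1. *Sele*, E-selectin, was at 0, 1.31 and 1.601 against 85.8, 99.1 and 103 (5.73, adjusted p = 1.2e-06). *Madcam1*, the addressin for α4β7 integrin, was at 2.33, 0 and 0.534 against 58.8, 71.3 and 77.6 (5.34, adjusted p = 5.0e-06), a ratio of pooled reads of 107 (95% interval 29.3 to 888) that covers counting error only. Both are near 0 in the quiescent group. *Icam1* was at 13.98, 28.9 and 29.3 against 240.1, 183 and 228 (3.18, adjusted p = 2.9e-06), *Vcam1* at 228, 297 and 358 against 2839.6, 2387 and 2566 (3.16, adjusted p = 5.4e-08) and the hyaluronan receptor *Cd44* at 566, 525 and 762 against 3186, 2783 and 2979 (2.29, adjusted p = 2.2e-07). These 3 are high in every activated library and their groups are apart.

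Matrix metalloproteinase genes and inhibitors have calls in both directions. On the list of metalloproteinases, plasminogen genes and inhibitors, 10 of 29 tested were called higher and 3 lower, with a median of 0.29 (range 0.14 to 0.49). *Mmp3*, stromelysin, was at 0, 0 and 1.07 against 156, 134 and 141 (6.82, adjusted p = 1.9e-07), a ratio of pooled reads of 218 (95% interval 60.2 to 1809) that covers counting error only. *Mmp9*, a gelatinase, was at 0, 0 and 2.13 against 182, 134 and 166 (6.78, adjusted p = 6.8e-07). Only quiescent replicate 3 has any read of these 2. *Mmp2* was at 34.9, 49.9 and 40.02 against 185, 171 and 163 (2.04, adjusted p = 2.2e-06). While *Timp1* rose (5.94, adjusted p = 1.8e-09), *Timp3* was at 787, 876 and 1025 against 272, 326 and 259 (−1.65, adjusted p = 1.3e-06) and *Timp4* at 158, 167 and 120.1 against 41.5, 64.9 and 59.5 (−1.42, adjusted p = 0.00016). *Mmp15*, a membrane-bound enzyme, also fell (−1.22, adjusted p = 1.7e-06). The call of *Timp4* did not hold without quiescent replicate 2 or activated replicate 3 (adjusted p = 0.0021 without quiescent replicate 2). *Mmp13* was at 25.6, 18.4 and 24.5 against 17.4, 37.8 and 17.2 (−0.01, adjusted p = 0.99), with a sign that differs between ways of scaling, and *Plau* at 27.95, 52.5 and 51.8 against 46.3, 69.9 and 27.6 (0.08, adjusted p = 0.88), neither called.

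Matrix protein genes moved in both directions, with 8 of 32 tested genes called higher, 5 lower and a median of 0.19 (range 0.04 to 0.38). *Has2*, a hyaluronan synthase, was at 4.66, 5.25 and 5.87 against 261, 269.6 and 279 (5.44, adjusted p = 5.7e-09). *Tnc*, tenascin C, was at 3410.4, 3885 and 6715 against 20899, 18746 and 21887 (2.20, adjusted p = 1.0e-05), with replicate 3 the highest of the quiescent group. Basement membrane nidogen *Nid1* (2.45, adjusted p = 2.3e-07) and collagen *Col6a1* (2.93, adjusted p = 3.6e-06) rose as well. The lectican *Vcan*, singled out after its values were seen, rose (1.94, adjusted p = 8.5e-08), while 2 other lecticans fell, *Ncan* at 9979.5, 10883 and 12482 against 4448, 4661 and 5328 (−1.21, adjusted p = 1.2e-05) and *Bcan* at 3566, 3593 and 3376 against 1223, 1324 and 1258 (−1.47, adjusted p = 2.0e-07). Tenascin R, *Tnr* (−1.50, adjusted p = 1.7e-05), and *Ptprz1*, a receptor phosphatase proteoglycan, at 11818, 12928 and 14353 against 4622, 4442 and 4707 (−1.50, adjusted p = 1.1e-06), fell too. Collagen *Col11a1* is the fifth gene called lower (−1.03, adjusted p = 4.0e-05), singled out after its values were seen, and was not called without quiescent replicate 3 or activated replicate 2 (log2 fold change −0.96 without activated replicate 2).

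All 3 published marker sets of reactive astrocytes held genes that rose. The pan-reactive set had 9 of 11 tested called, all higher, with a median of 4.26. The neuroinflammatory (A1) set had 5 of 11, all higher, with a median of 1.59, and the ischemia-type (A2) set 8 of 12, all higher, with a median of 1.91. In the pan-reactive set *S1pr3*, a sphingosine phosphate receptor, was at 25.6, 39.4 and 72.03 against 574, 516 and 511 (3.64, adjusted p = 1.9e-06). *Gfap*, the intermediate filament used to mark reactive astrocytes, was at 1735, 1682 and 3455 against 4716, 4539 and 4473 and was not called (1.08, adjusted p = 0.0026), while *Vim* overlaps, at 6939.5, 7710.0 and 10300.4 against 10052, 9635 and 10281 (0.28, adjusted p = 0.14). Replicate 3 carries about 2 times the *Gfap* of the other quiescent libraries, and the gene becomes called without quiescent replicate 3 (log2 fold change 1.42 there). In the A1 set the adhesion gene *Amigo2* was at 23.3, 32.8 and 14.4 against 127, 115 and 122 (2.39, adjusted p = 2.4e-05) and the glycosyltransferase *Ggta1* at 27.95, 34.1 and 44.3 against 114, 98.4 and 109 (1.59, adjusted p = 5.9e-05). *Srgn*, with a sign that differs between ways of scaling (0.16), *Fkbp5* (−0.72) and *Fbln5* (−0.59) of that set were not called. In the A2 set *Tgm1*, a transglutaminase, was at 0, 0 and 3.73 against 195, 128 and 119.9 (6.43, adjusted p = 4.4e-06), *Tm4sf1* at 20.97, 27.6 and 37.9 against 1059, 997 and 928 (5.10, adjusted p = 7.0e-09) and *S100a10* at 165, 129 and 170.2 against 489, 498 and 481 (1.67, adjusted p = 1.1e-06).

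Homeostatic transporters and channels fell in part. Of 27 tested 3 were called higher and 11 lower, with a median of −0.80. *Kcnj10*, the potassium channel Kir4.1, was at 3480.2, 3677 and 4431 against 779, 849 and 967 (−2.16, adjusted p = 1.5e-07). The glutamate carrier *Slc1a3* was at 10364, 11520.4 and 12529 against 10709, 10762 and 11195 and *Slc1a2* at 2097, 2216 and 2761 against 1493, 1422 and 1464, neither called (−0.07 and −0.68, adjusted p = 0.66 and 0.00042). Glutamine synthetase *Glul* was at 3483, 3925 and 4473 against 2301, 2280.0 and 2402, connexin *Gja1* at 1419, 1577 and 1899 against 943, 926 and 918 and the water channel *Aqp4* at 683, 800.4 and 1012 against 430.0, 488 and 484. All 3 have separate groups and adjusted p below 0.001 without reaching the fold threshold (−0.76, −0.80 and −0.81). Against the trend of the list, the cystine-glutamate exchanger *Slc7a11* was at 309.8, 436 and 490.3 against 9267, 8024 and 7958 (4.37, adjusted p = 5.7e-09) and the lactate carrier *Slc16a1* rose (1.29, adjusted p = 1.3e-06).

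Identity genes of astrocytes gave 13 calls of 28 tested, all lower, with a median of −1.09 (1 called higher and 12 lower without quiescent replicate 3). *Tril*, an accessory protein of Toll-like receptors, was at 1738, 1975 and 2048 against 348, 337 and 348 (−2.47, adjusted p = 7.3e-09), and the endothelin receptor *Ednrb* at 2583, 2612 and 2887 against 509, 553 and 545 (−2.33, adjusted p = 8.2e-09). *Pla2g7*, a lipoprotein-bound phospholipase, was at 1369.7, 1279 and 1387 against 253, 282 and 266 (−2.33, adjusted p = 8.6e-09), and *Fgfr3*, a receptor of the astrocyte lineage, at 622, 527 and 619 against 184, 168 and 162 (−1.78, adjusted p = 2.7e-07). All 4 are lower in every activated library by a wide margin. *Agt*, the angiotensin precursor, was at 37.3, 49.9 and 53.4 against 4.82, 6.42 and 4.31 (−2.95, adjusted p = 1.7e-05). Not called were *Sox9*, at 1076, 1274 and 1608 against 1169, 1105 and 1184, the lipid carrier *Apoe*, at 12118, 12536 and 13275 against 7882, 8226 and 8166, and *Aldh1l1*, at 1756, 2111 and 2502 against 1083, 1014 and 1156 (−0.18, −0.64 and −0.96, adjusted p = 0.31, 0.00047 and 9.3e-05). The last was called without quiescent replicate 1 or activated replicate 3 (log2 fold change −1.09 without quiescent replicate 1).

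Secreted synaptogenic and engulfment genes had 3 of 26 tested called higher and 2 lower, with a median of 0.38 (7 called higher and 2 lower without quiescent replicate 3). *Thbs2*, a thrombospondin, was at 4.66, 17.1 and 19.7 against 599, 566 and 586 (5.51, adjusted p = 9.7e-07). *Gas6*, the ligand of MERTK and AXL, was at 221, 202 and 184 against 559, 535 and 603 (1.48, adjusted p = 8.3e-07). *Mfge8*, the bridging protein for phosphatidylserine, was at 3194, 3388 and 3253 against 696, 735 and 770.1 (−2.16, adjusted p = 1.1e-08), and *Nlgn3*, a neuroligin, at 1027, 1115 and 1081 against 401, 422 and 448 (−1.34, adjusted p = 4.7e-07). The receptors *Mertk*, at 53.6, 57.7 and 68.3 against 80.99, 67.7 and 87.96, *Axl*, at 596, 715 and 793 against 1438, 1373 and 1364, and *Megf10*, at 352, 445 and 440.2 against 186, 199 and 233, were not called with all libraries (0.39, 1.00 and −0.996, adjusted p = 0.092, 2.2e-05 and 8.0e-05). *Thbs1* was at 97.8, 163 and 245 against 388, 388 and 348, with quiescent replicate 3 the highest of its group (1.24, adjusted p = 0.0024). Calls appeared for *Axl* without quiescent replicates 2 or 3 or activated replicates 2 or 3 (log2 fold change 1.09 without quiescent replicate 3), *Megf10* without quiescent replicate 1 or activated replicate 3 (log2 fold change −1.11 without quiescent replicate 1) and *Thbs1* without quiescent replicate 3 (log2 fold change 1.56 there).

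More Notch and glial transcription factor genes were called lower than higher. Of 29 tested 1 was called higher and 9 lower, with a median of −0.63 (2 called higher and 9 lower without quiescent replicate 1). The gene called higher is the ligand *Jag1*, at 114, 98.4 and 141 against 320.1, 353 and 379 (1.58, adjusted p = 5.3e-06). The Notch target *Hes1* was at 279.5, 228 and 174 against 92.6, 85.6 and 79.3 (−1.37, adjusted p = 6.2e-05) and *Hes5* at 95.5, 69.5 and 46.95 against 10.6, 19.3 and 11.2 (−2.28, adjusted p = 0.00016), with the call of *Hes5* lost without quiescent replicate 2 or activated replicates 1 or 3 (adjusted p = 0.0020 without quiescent replicate 2). Both step down from quiescent replicate 1 to 3. The inhibitory ligand *Dll3* was at 123, 168 and 147 against 32.8, 37.8 and 34.5 (−2.02, adjusted p = 2.8e-06). *Olig2* was at 4305, 4203 and 3988 against 1683, 1710.2 and 1741 (−1.28, adjusted p = 5.2e-07). The astrocyte determinant *Nfia*, at 2101, 2518 and 2705 against 1409.7, 1378 and 1600.5, and *Notch1*, at 2166, 2166 and 2222 against 1803, 1769 and 1844, were not called (−0.73 and −0.28, adjusted p = 0.00028 and 0.016).

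Genes of the BMP and TGF-β families moved in both directions, with 8 of 29 tested called higher and 4 lower and a median of 0.40. *Fst*, follistatin, was at 0, 5.25 and 2.67 against 113, 115 and 116 (5.35, adjusted p = 1.7e-05), and *Bmp2* at 2.33, 1.31 and 1.601 against 36.6, 40.6 and 37.9 (3.86, adjusted p = 1.0e-05). *Bmp7* was at 279.5, 342 and 295 against 79.1, 69.9 and 83.6 (−1.96, adjusted p = 5.4e-07), and the receptor *Bmpr1b* at 231, 229.6 and 219.8 against 62.7, 64.2 and 64.7 (−1.81, adjusted p = 5.0e-07). The signal carrier *Smad5*, singled out after its values were seen, is also called lower (−1.12, adjusted p = 1.6e-06). Another type I receptor, *Bmpr1a*, was at 981, 1124 and 1134 against 1421, 1384 and 1500.4 and was not called (0.41, adjusted p = 0.0034). *Bmp3* was at 32.6, 43.3 and 28.8 against 0, 1.43 and 0.862 (−4.42, adjusted p = 3.1e-05), with 3 reads in the activated group and a ratio of pooled reads of 0.0253 (95% interval 0.00513 to 0.0761) that covers counting error only, and lost its call without quiescent replicate 2 (adjusted p = 0.0011 there). The BMP target *Id1* was at 90.8, 81.4 and 94.4 against 274, 277 and 267 (1.61, adjusted p = 9.0e-07), while *Id3*, at 205, 268 and 197 against 368, 345 and 355, was not called (0.69, adjusted p = 0.0011).

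Most replication and mitosis genes fell, with 36 of 43 tested called lower, 2 higher and a median of −1.75. *Mki67*, the proliferation antigen, was at 4547, 4897 and 5379 against 1050.0, 1243 and 1188 (−2.09, adjusted p = 7.4e-08). *E2f8*, a repressor of the E2F family, was at 284, 289 and 379 against 61.7, 75.6 and 56.1 (−2.28, adjusted p = 8.0e-07), and the thymidine kinase *Tk1* at 279.5, 245 and 224 against 50.1, 60.6 and 45.7 (−2.24, adjusted p = 6.5e-07). *Pcna*, the replication clamp, was at 2607, 2183 and 1861 against 714, 761 and 751 (−1.56, adjusted p = 1.4e-06), and *Cdk1* at 617, 617 and 533 against 171, 199.7 and 172 (−1.70, adjusted p = 4.2e-07). Every one of these is lower in each activated library than in any quiescent one. The 2 called higher are inhibitors of cyclin-dependent kinases, *Cdkn1a* at 778, 882 and 1015 against 2282, 2344 and 2476 (1.42, adjusted p = 1.3e-06) and *Cdkn2a* at 76.9, 78.7 and 83.2 against 389, 378 and 409 (2.28, adjusted p = 5.2e-08). *Ccnd1*, cyclin D1, was at 7131, 7824 and 10167 against 8662, 8318 and 9233 and was not called (0.08, adjusted p = 0.70), with a sign that differs between ways of scaling.

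Cytoskeletal genes had 2 of 22 tested called higher, 3 lower and a median of 0.25 (range 0.10 to 0.33), with 1, 5, 1 and 1 called higher without quiescent replicates 2 and 3 and activated replicates 1 and 3 in turn. Tropomyosin *Tpm1* was at 454, 535 and 509.6 against 1343, 1171 and 1152 (1.29, adjusted p = 1.6e-06), and the nuclear lamin *Lmna* at 105, 140.4 and 223 against 442, 446 and 447 (1.58, adjusted p = 0.00014). The genes called lower are of smooth muscle type, *Tagln* at 321, 417 and 408 against 171, 197 and 153 (−1.13, adjusted p = 4.7e-05), *Myl9* at 97.8, 123 and 105 against 45.3, 46.4 and 46.6 (−1.21, adjusted p = 8.1e-05) and *Acta2* at 235, 265 and 319 against 98.3, 164 and 109 (−1.16, adjusted p = 0.00049). Calls were lost for *Lmna* without quiescent replicate 2 or activated replicates 1 or 3 (adjusted p = 0.0018 without quiescent replicate 2) and *Acta2* without quiescent replicate 2 or activated replicates 1 or 3 (adjusted p = 0.0048 without activated replicate 3).

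Of 29 sterol genes tested with limma 0 were called, 12 had an unadjusted p below 0.05 and edgeR called 0, with a list median of −0.12 (range −0.16 to −0.07). The efflux pump *Abca1* was at 2474, 3001 and 2891 against 4898, 4828 and 5360.2 (0.85, adjusted p = 5.4e-05) and the synthase *Hmgcs1* at 3771, 4574 and 4922 against 2816, 2839 and 3147 (−0.58, adjusted p = 0.0017), neither called. Of 34 fatty acid genes 1 was called higher and 3 lower, with a median of −0.28 (5 called higher and 4 lower without quiescent replicate 3). *Pnpla2*, the first lipase of lipid droplets, was at 203, 197 and 235 against 469.6, 459 and 476 (1.15, adjusted p = 4.2e-06). Its inhibitor *G0s2* was at 53.6, 48.5 and 26.1 against 10.6, 12.8 and 7.76 (−1.90, adjusted p = 0.00087). The lipase thus rose while its inhibitor fell, but the call of the inhibitor was lost under 9 alternatives. Among them are the fits without quiescent replicates 1 or 2 or activated replicates 1, 2 or 3 (log2 fold change −1.78, adjusted p = 0.0085 without quiescent replicate 2). The elongases *Elovl5*, at 1735, 1753 and 1693 against 822, 851 and 861, and *Elovl2*, at 133, 139 and 149 against 56.9, 53.5 and 40.5, fell (−1.03 and −1.48, adjusted p = 1.4e-06 and 2.8e-05). *Scd1* was at 4952, 5954 and 4659 against 4738, 4690.4 and 5674, not called (−0.04, adjusted p = 0.82), with a sign that differs between ways of scaling.

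An enzyme of each step to prostaglandin E2 rose. Of 14 tested 4 were called, all higher, with a median of −0.01 (range −0.12 to 0.31). *Pla2g4a*, which frees arachidonic acid, was at 58.2, 41.99 and 48.6 against 298, 262 and 250.1 (2.43, adjusted p = 3.9e-07). The cyclooxygenase *Ptgs2* was at 196, 323 and 364 against 1474, 1662 and 1499.6 (2.44, adjusted p = 1.8e-06) and the synthase *Ptges* at 44.3, 44.6 and 57.6 against 188, 177 and 158 (1.82, adjusted p = 3.7e-06). These 3 act in sequence, and the fourth call is *Ptges2*, a further synthase of this kind (1.69, adjusted p = 4.2e-07), singled out after its values were seen. *Ptgds*, the prostaglandin D synthase, was at 233, 209 and 104 against 71.4, 89.9 and 95.7, with quiescent replicate 3 close to the activated libraries (−1.01, adjusted p = 0.010). It was called without quiescent replicate 3 (log2 fold change −1.36 there).

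Redox and nitric oxide genes had 9 of 26 tested called, all higher, with a median of 0.80. *Gch1*, which makes the cofactor of nitric oxide synthases, was at 6.99, 9.18 and 10.7 against 157, 133 and 136 (3.86, adjusted p = 2.0e-07). *Nos2*, the inducible synthase itself, was at 9.32, 14.4 and 21.3 against 39.5, 35.7 and 33.6 and was not called (1.28, adjusted p = 0.0065). Of the superoxide dismutases, extracellular *Sod3* was at 23.3, 13.1 and 17.6 against 283, 235 and 219.9 (3.73, adjusted p = 2.2e-07), mitochondrial *Sod2* at 501, 554 and 569 against 1041, 939 and 913 (0.83, adjusted p = 2.7e-05) and mouse *Sod1* at 1314, 1254 and 1146 against 1529, 1415 and 1479.7 (0.25, adjusted p = 0.037), the last 2 not called. Metallothionein *Mt2* was at 196, 192 and 230.5 against 731, 725 and 670.0 (1.78, adjusted p = 2.1e-07). *Mt1*, at 1291, 1344 and 1389 against 1816, 1839 and 1788, and *Mt3*, at 2381, 2168 and 2053 against 1882, 1833 and 1799.7, were not called (0.44 and −0.26, adjusted p = 0.0011 and 0.037). *Nos2* was called without quiescent replicate 3 (log2 fold change 1.56 there).

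Glycolysis genes had 6 of 27 tested called higher and 1 lower, with a median of 0.21 (range 0.13 to 0.31), with 2, 1 and 3 called higher without quiescent replicate 2 and activated replicates 1 and 3 in turn. The glucose carrier *Slc2a1* was at 184, 219 and 272 against 536, 424 and 465 (1.09, adjusted p = 0.00012), hexokinase *Hk2* at 90.8, 65.6 and 117 against 216, 232 and 239 (1.36, adjusted p = 0.00014) and the regulator *Pfkfb3* at 189, 193 and 279 against 553, 456 and 450.1 (1.16, adjusted p = 0.00011). All 3 calls were lost in some fits without 1 library. For *Slc2a1* these are without quiescent replicates 1 or 2 or activated replicates 1 or 3 (1.08, adjusted p = 0.0015 without quiescent replicate 2). For *Hk2* they are without activated replicates 1 or 3 (1.33, adjusted p = 0.0018 without activated replicate 3). For *Pfkfb3* they are without quiescent replicate 2 or activated replicate 1 (1.07, adjusted p = 0.0015 without quiescent replicate 2). Over all 6 fits the log2 fold changes lie at 0.95 to 1.23, 1.14 to 1.56 and 1.06 to 1.34. *Aldoc*, the brain aldolase, is the gene called lower, at 1919, 2072 and 2101 against 482, 589 and 521 (−1.94, adjusted p = 8.2e-08). *Ldha*, at 1666, 1678 and 1745 against 1861, 1888 and 1817, and *Gapdh*, at 7124, 7462 and 9175 against 8089.8, 8034 and 8033, were not called (0.13 and 0.03, adjusted p = 0.22 and 0.85), and the sign of *Gapdh* differs between ways of scaling. Of 32 genes tested with limma on the respiratory chain list 0 were called, 8 had an unadjusted p below 0.05 and edgeR called 0, with a median of 0.04 (range −0.11 to 0.16). *Cox4i1*, at 2176, 1762 and 1173 against 1734, 1844 and 1853, and *Uqcrc2*, at 1059.9, 905 and 709.6 against 864, 891 and 939.9, step down from quiescent replicate 1 to 3 (0.13 and 0.03, adjusted p = 0.60 and 0.88).

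Cell death and survival genes had 11 of 30 tested called higher and 1 lower, with a median of 0.36. The death receptor *Fas* was at 44.3, 28.9 and 19.7 against 237, 196 and 182 (2.75, adjusted p = 6.5e-06), and *Casp12* at 2.33, 7.87 and 10.7 against 86.8, 75.6 and 67.3 (3.46, adjusted p = 5.7e-05). *Birc5*, survivin, which also acts in mitosis, is the gene called lower, at 387, 349 and 287 against 101.2, 126 and 127 (−1.52, adjusted p = 7.2e-06).

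Few stress and lysosome genes were called. The chaperone list has 1 of 25 tested called higher, the small heat shock protein *Hspb8*, at 62.9, 61.7 and 105 against 290.2, 293 and 272 (1.93, adjusted p = 1.1e-05), with a list median of 0.33 (2 called higher without quiescent replicate 2). The endoplasmic reticulum chaperone *Hspa5* was at 1973, 2060.0 and 2164 against 3375, 3182 and 3236 and the stress factor *Ddit3* at 18.6, 35.4 and 33.1 against 58.8, 58.5 and 65.5, neither called (0.66 and 1.09, adjusted p = 8.6e-05 and 0.0049). The lysosome list has 1 of 27 called higher, the tetraspanin *Cd63*, at 1649, 1661 and 1573 against 3586, 3512 and 3507 (1.12, adjusted p = 1.1e-06), with a median of 0.09 (range 0.07 to 0.19). Groups of *Cd63* are tight. *Ctsd* was at 3613, 4451 and 5229 against 6264, 7316 and 6179, and *Lamp1* at 3028, 2971 and 2914 against 3070.1, 3255 and 3080.2, neither called (0.58 and 0.08, adjusted p = 0.0059 and 0.50).

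Guidance molecules had 7 of 32 tested called higher and 2 lower, with a median of −0.01 (range −0.10 to 0.01). The semaphorin *Sema3c* was at 25.6, 26.2 and 28.8 against 252, 243 and 248 (3.16, adjusted p = 3.2e-08), and *Slit2* at 37.3, 38.1 and 42.7 against 312, 226 and 221 (2.64, adjusted p = 3.8e-07). *Ntn1*, netrin, was at 780.4, 802 and 952 against 1869.6, 1898 and 2171 (1.23, adjusted p = 3.4e-06), and its receptor *Unc5b* rose too (2.24, adjusted p = 1.8e-07). *Plxnb3*, a semaphorin receptor, fell furthest, at 119, 151 and 101.4 against 8.68, 13.6 and 9.49 (−3.43, adjusted p = 9.3e-07), followed by the ephrin receptor *Ephb1* (−1.49, adjusted p = 1.7e-05).

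Receptors for transmitters and lipids had 6 of 26 tested called higher and 7 lower, with a median of −0.28 (5, 3 and 4 called higher and 4, 5 and 4 lower without quiescent replicate 2 and activated replicates 1 and 3 in turn). Both metabotropic glutamate receptors named here fell, *Grm3* from 214, 203 and 170.2 to 43.4, 61.3 and 71.6 (−1.74, adjusted p = 2.2e-05) and *Grm5* from 843, 861 and 728 to 272, 367 and 389.8 (−1.25, adjusted p = 2.3e-05). The lysophosphatidic acid receptor *Lpar1* rose, from 25.6, 20.99 and 29.9 to 113, 77.7 and 97.4 (1.87, adjusted p = 3.1e-05). The adenosine receptor *Adora2b* was at 2.33, 3.94 and 4.80 against 39.5, 28.5 and 35.4 (2.94, adjusted p = 6.9e-05) and *Adora1* at 137, 167 and 184 against 93.5, 91.3 and 99.2, not called (−0.76, adjusted p = 0.0010). The call of the former was lost without activated replicates 1 or 3 (adjusted p = 0.0016 without activated replicate 1).

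The label of astrocytes was set against markers of the cell types. Astrocyte markers were 15 of 16 tested, 4 called, all lower, with a median of −0.80 (1 called higher and 4 lower without quiescent replicate 3). Their summed level was 31101, 33889 and 40245 in the quiescent and 27875, 28212 and 29237 in the activated libraries, with *Slc1a3* the most abundant, and they are read in every library of both groups. Oligodendrocyte lineage markers were 12 of 17 tested, 4 called, all lower, with a median of −0.53. They sum to 14890.1, 14694 and 14758 in the quiescent and 5553, 5678 and 5508 in the activated libraries. *Olig1*, the most abundant, was at 8703, 8676 and 8532 against 2573, 2663 and 2537 (−1.74, adjusted p = 9.4e-08), while *Pdgfra*, of precursors, was at 431, 335 and 531 against 403, 393 and 367, not called (−0.13, adjusted p = 0.52). The myelin gene *Mog* had no read in the quiescent group and 1 in the activated group. The panning on O4 was to remove cells of this lineage. Whether the fall lies in astrocytes that carry *Olig1* or in a fraction of precursors was not tested.

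Microglial markers were 17 of 18 tested, with 0 called by limma, 0 at an unadjusted p below 0.05 and 0 called by edgeR, and a median of 0.00 (range −0.28 to 0.23) whose sign differs between ways of scaling. They sum to 1405, 2095 and 2661 in the quiescent and 1765, 2975 and 1596 in the activated libraries, with *Laptm5* the most abundant. *Csf1r*, the microglial growth factor receptor, was at 161, 234 and 307 against 208, 327 and 185 (0.04, adjusted p = 0.91), a sign that also differs between ways of scaling, and *Cx3cr1* at 86.2, 125 and 182 against 109.9, 187 and 86.2 (−0.05, adjusted p = 0.92). Quiescent replicate 3 and activated replicate 2 are the highest of their groups for the sum and for both genes. Among the genes whose values follow the order of the sum in both groups are *Tnf*, *C1qa*, *Il1rn*, *Tnfrsf1b*, *C3ar1*, *Rel* and *Ccl5*, and *C1qa* is itself part of the sum. Whether these reads come from microglia, which the panning on CD45 was to remove, was not tested.

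Of the endothelial list 1 of 13 was tested. The list sums to 62.9, 56.4 and 82.7 in the quiescent and 681, 735 and 778 in the activated libraries, with *Flt1*, a VEGF receptor, at 37.3, 39.4 and 51.2 against 656, 703 and 745 (4.02, adjusted p = 5.3e-09), while *Cldn5*, *Tie1* and *Ly6c1* had no read. Of pericyte and fibroblast markers 8 of 16 were tested, 2 called higher and 1 lower, with a median of 0.17 (range 0.14 to 0.40), with 0 lower without quiescent replicate 2 and activated replicates 1 and 3 in turn. Their sum was 969, 1033 and 1372 in the quiescent and 1154, 1242 and 1093 in the activated libraries, *Pdgfra* was the most abundant and *Kcnj8* had no read. The small proteoglycan genes *Lum*, at 4.66, 0 and 1.601 against 124, 100.6 and 89.7, and *Dcn*, at 2.33, 3.94 and 1.601 against 71.4, 65.6 and 47.4, are the 2 called higher (5.42 and 4.14, adjusted p = 1.2e-05 and 4.3e-06). Neuronal markers were 13 of 18 tested, 4 called higher and 1 lower, with a median of 0.97 (0, 0, 0 and 1 called higher without quiescent replicate 2 and activated replicates 1, 2 and 3 in turn). They sum to 5593, 5865 and 5069 in the quiescent and 3114, 3271 and 3384 in the activated libraries. *Map2*, a microtubule protein and the most abundant, was at 4344, 4569 and 3619 against 1715, 1913 and 1996 (−1.15, adjusted p = 8.7e-06), and *Slc17a6* had no read. The 4 called higher are *Nefl*, *Nefm*, *Dlx1* and *Tubb3* (2.95, 2.90, 1.25 and 1.03), and each call was lost with a library left out, *Nefl* without quiescent replicate 2 or activated replicates 1, 2 or 3 (adjusted p = 0.0085 without activated replicate 1), *Nefm* without quiescent replicate 2 or activated replicates 1, 2 or 3 (adjusted p = 0.0021 without activated replicate 3), *Dlx1* without quiescent replicate 2 or activated replicates 1 or 2 (adjusted p = 0.0038 without activated replicate 1) and *Tubb3* without quiescent replicate 2 or activated replicates 1, 2 or 3 (adjusted p = 0.0030 without activated replicate 2). Ependymal markers were 4 of 11 tested, with a median of −0.05 (range −0.24 to 0.14) and 1 called higher, *Rarres2* (1.79, adjusted p = 0.00032), a call lost without quiescent replicate 2 or activated replicates 1, 2 or 3 (adjusted p = 0.0043 without activated replicate 3). They sum to 312, 358 and 453 in the quiescent and 329, 294 and 307 in the activated libraries, with *Foxj1* the most abundant. Whether any of these come from a small number of other cells was not tested.

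Promoter sequences of 300 bases, from 250 before to 50 after the start, were read for the 12 largest rises and falls. Of the rises, *Cxcl5*, *Tslp* and *Ccl2* had no promoter in the file used. *Steap4*, *Cxcl1* and *Ptx3* each carry 2 matches to the κB consensus, which overlap in the latter 2, *Bcl3* carries 1, and *Lcn2*, *Shisa3*, *C3*, *Timp1* and *Pik3cd* carry none. The first match begins 250, 71 and 1 bases before the start in *Steap4*, *Cxcl1* and *Ptx3*. Of the falls, *Als2cl* carries 1, *Aldh1a1*, *Slc6a11*, *Chrna4*, *Lrrn1*, *Adgrg1* and *Sox8* carry none, and the others had no promoter. Of all 27025 promoters in the file 4.35% hold a match. Fewer than 80% of the genes called higher or lower could be matched to a promoter (567 of 740 and 529 of 684), so no share of those sets with a motif is given. A match describes the sequence and does not show that a factor binds. The sequences are from RefSeq on build GRCm38.p6, at chr5:7960222-7960521 on the plus strand for *Steap4*, chr5:90890995-90891294 on the plus strand for *Cxcl1* and chr3:66219637-66219936 on the plus strand for *Ptx3*, with capitals marking the motif.
Steap4: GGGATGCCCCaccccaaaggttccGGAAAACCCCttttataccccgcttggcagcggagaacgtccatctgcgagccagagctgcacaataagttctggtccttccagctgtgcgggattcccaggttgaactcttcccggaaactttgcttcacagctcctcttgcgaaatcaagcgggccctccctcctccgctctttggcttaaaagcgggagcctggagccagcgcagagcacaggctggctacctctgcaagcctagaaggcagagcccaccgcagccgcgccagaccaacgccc
Cxcl1: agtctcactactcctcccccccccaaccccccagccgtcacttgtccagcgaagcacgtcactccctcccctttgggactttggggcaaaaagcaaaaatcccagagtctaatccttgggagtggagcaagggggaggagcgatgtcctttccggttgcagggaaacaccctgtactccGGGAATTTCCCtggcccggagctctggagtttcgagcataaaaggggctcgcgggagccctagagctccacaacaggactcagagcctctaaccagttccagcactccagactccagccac
Ptx3: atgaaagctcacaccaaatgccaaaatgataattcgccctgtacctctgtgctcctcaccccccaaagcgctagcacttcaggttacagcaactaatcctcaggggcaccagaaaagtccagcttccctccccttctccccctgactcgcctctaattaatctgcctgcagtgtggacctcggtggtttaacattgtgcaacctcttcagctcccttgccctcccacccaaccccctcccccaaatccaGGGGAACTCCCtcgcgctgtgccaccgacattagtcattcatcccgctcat

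Interferon-stimulated genes could be matched to a promoter for 31 of 38 tested. Of these 16 (51.6%) hold the core of the interferon-stimulated response element, GAAA and GAA with 2 bases between, against 8.57% of all 27025 promoters in the file. The match is a property of the list and is found in 5 of 13 genes called and 11 of 18 not called. The promoter of *Ifitm3* (chr7:141010695-141010994, minus strand) has 2 matches, the first from base 253, so both lie in the 50 bases after the start. Its sequence is from RefSeq on build GRCm38.p6, with capitals marking the motif.
Ifitm3: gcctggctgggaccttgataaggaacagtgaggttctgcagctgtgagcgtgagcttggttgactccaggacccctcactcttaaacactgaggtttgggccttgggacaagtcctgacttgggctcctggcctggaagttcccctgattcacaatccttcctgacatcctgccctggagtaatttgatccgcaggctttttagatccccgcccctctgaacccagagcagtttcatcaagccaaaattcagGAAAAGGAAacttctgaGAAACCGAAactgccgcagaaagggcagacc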

How the data were processed

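RNA of 6 of the 24 libraries is described, 3 quiescent and 3 activated WT astrocyte samples, and the 6 SOD1G93A astrocyte libraries enter only the test of the difference between genotypes. The values are signal in normalized counts that the authors deposited, made by STAR 2.7.3a on mm10, RSEM counts and DESeq2 size factors. The deposited fold changes and p-values were not used, and the microglia files were not analysed here. Whole reads were recovered by dividing each library by the value of 1 read, taken from its smallest value above 0 and refined on the low values, which put 100% of values within 0.1 of a whole number.

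The test was limma 3.58.1 in R 4.3.3, for means of 10 or more, on log2 of the value plus 1 with a mean-variance trend. The limits of a call are 0.001 on the p-value after Benjamini-Hochberg and 2-fold. On the recovered reads edgeR 4.0.16 calls 1477 genes and DESeq2 1.42.0 calls 1536. Other alternatives were pseudocounts of 0.5 and 5, no filter, a minimum of 10 in every library, quantile and TMM scaling, no trend, an adjusted p limit of 0.05, a replicate block and leaving out each library. Depth per WT library stands in the report, and in the shallowest library, quiescent replicate 1, 1 read is a normalized count of 2.33. The SOD1G93A astrocyte libraries hold 3292225 to 9526331 reads in the quiescent and 2135439 to 3929272 in the activated group.

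Named genes were the 12 largest changes in each direction among called genes with a mean of at least 100 and groups apart, genes written down for each list, and up to 3 called members of each list in each direction, by size of change. Some genes that these rules pick are not reported here and stay in the counts. Members and lists were chosen with earlier results of these data known. Positions are from GENCODE M21 on GRCm38, which matched 23334 of 24411 symbols and 11887 of the tested ones. The older symbols of 2 list members, *Dfna5* for *Gsdme* and *Ppap2b* for *Plpp3*, were used.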

Additional observations from a re-analysis of the deposited data

Results flagged for a closer look

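The difference between the SOD1G93A and WT responses, as log2 and tested over the 12 astrocyte libraries, marks 11 named genes for a closer look. As SOD1G93A minus WT it is 1.365 for *Gbp3*, 2.489 for *Usp18*, 1.448 for *Gbp7*, 2.086 for *Oasl2*, 1.36 for *Asns* and −1.465 for *Dscaml1*, with adjusted p between 0.0018 and 0.0028 in limma. It is 1.434 for *Irgm1* (adjusted p = 0.0044), 1.138 for *Ifit2* (0.021), 1.98 for *Ifit1* (0.025), 0.6842 for *Aldoc* (0.040) and 1.235 for *Cxcl10* (0.049). For *Ifit2* and *Aldoc*, whose responses are negative in both genotypes, it means a less negative response in SOD1G93A. For *Dscaml1*, with responses of −2.14 in WT and −3.61 in SOD1G93A, it means a larger fall in SOD1G93A. *Usp18*, *Gbp7*, *Oasl2*, *Asns*, *Dscaml1* and *Irgm1* were chosen after their values were seen.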

How the results depend on the processing

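The count of genes called stays within 1.5 times the main count of 1424 under every alternative except an adjusted p below 0.05 at any fold change, which by its construction drops the fold limit and gives 4722, with 2351 higher and 2371 lower. Leaving out 1 library gives 1087 to 1547 called, 532 to 849 higher and 524 to 698 lower. Of 341 named genes tested 211 are called, 165 of them under every alternative that tested them and 173 under all but the fits that leave out a library, and no called gene reversed. Without the mean-variance trend 36 of the 211 are not called. It is the only alternative to end the calls of 9, *Casp12*, *Cd14*, *Cxcl2*, *Grm5*, *Hes1*, *Hmox1*, *Socs3*, *Tagln* and *Tnfaip3*, at adjusted p of 0.0011 to 0.0020.

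The difference between genotypes has 0 genes called, but 3 with a pseudocount of 5, 4 in edgeR on the recovered reads, 34 at an adjusted p below 0.05 with any fold change, and 0 to 6 when a library is left out, 6 without WT quiescent replicate 1 and 1 without WT quiescent replicate 3. Apart from the looser limit the cause was not tested.

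The replicate block gives 1423 called, 752 higher and 671 lower, and 1 gene for the difference between genotypes. Deviations of samples with the same number correlate at 0.056, 0.030 and 0.017, against −0.065 to 0.048 for pairs with different numbers. The labels do not say whether samples with the same number share a preparation, and these small values cannot decide it. The block is no part of the main test.

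Depth limits the low genes, above all in quiescent replicates 1 and 2, where a gene near the minimum of 10 rests on few reads. With 3 libraries a group, 1 of which stands apart, spread is poorly known for single genes.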
